A study of Mus musculus with 11 samples.

Results

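The 10 genes described here encode the main transporters by which enterocytes, the absorptive cells of the small intestine, take up sugars, short peptides and amino acids and pass them on to the blood. They were chosen by symbol, and all 10 were found among the 37310 gene identifiers of the count tables. All 10 were also among the 14172 genes with enough reads to be tested. The data are bulk RNA sequencing libraries of 11 cultures of organoids from the small intestine of mice, each from its own combination of animal and passage. Organoids are small epithelial structures that stem cells of the intestinal crypt form in a gel and that contain several of the cell types of the gut lining. The late-passage group held passages 11, 12 and 13 of both animals (n = 6). The early-passage group held passages 2, 3 and 4 of mouse_283 and passages 2 and 4 of mouse_285 (n = 5). Every culture came from mice with the Lgr5-EGFP-IRES-creERT2 reporter allele, which puts a fluorescent protein and an inducible recombinase under the control of the stem cell gene Lgr5. No culture had a treatment named in the labels. All were grown in Matrigel with IntestiCult medium and passaged every 7 days. Mice of 4 and 24 months are named in the protocol, but no label ties an age to an animal, and age was not compared. The labels give small intestine for every library, whereas the protocol also describes colon and does not say which part a library came from. With 2 animals, the p-values below measure the spread between libraries of these animals, and the labels name no culture or sequencing batch, so that stage and batch cannot be told apart.

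Absorption runs through transporters on opposite faces of the enterocyte. On the apical face, towards the gut lumen, uptake is mostly driven by sodium or protons, and the sodium pump on the basolateral face keeps the sodium gradient going. Carriers on the basolateral face then let sugars and amino acids out towards the blood. Several of the amino acid carriers work as pairs of a light chain, which transports, and a heavy chain, which brings the light chain to the membrane. In the gut most of these transporters are known as genes of differentiated villus cells, of which stem and secretory cells hold little.

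The promoters of 4 of the genes are shown because 3 of them (Slc5a1, Slc7a9 and Slc7a7) carry the calls given below and the other, Slc3a1, encodes the partner chain of the Slc7a9 protein. A promoter is here the stretch of 250 bases before to 50 bases after a gene's start, from RefSeq on build GRCm38.p6, and all 10 genes had at least 1. The capitals mark matches, on either strand, to 4 short motifs of factors that work in intestinal epithelium.
Slc5a1, chr5:33103969-33104268, plus strand: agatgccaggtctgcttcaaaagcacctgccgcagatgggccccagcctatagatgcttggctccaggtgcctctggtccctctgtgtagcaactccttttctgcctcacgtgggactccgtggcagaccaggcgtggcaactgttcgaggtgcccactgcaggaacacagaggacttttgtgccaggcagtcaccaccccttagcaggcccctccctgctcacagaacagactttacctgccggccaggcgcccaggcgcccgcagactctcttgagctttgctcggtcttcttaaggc
Slc7a7, chr14:54409423-54409722, minus strand: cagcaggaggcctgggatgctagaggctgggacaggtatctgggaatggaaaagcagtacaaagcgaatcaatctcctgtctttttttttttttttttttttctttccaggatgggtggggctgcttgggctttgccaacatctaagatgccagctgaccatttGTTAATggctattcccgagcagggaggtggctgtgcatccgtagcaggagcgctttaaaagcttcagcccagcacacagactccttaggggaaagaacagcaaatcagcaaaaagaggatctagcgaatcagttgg
Slc7a9, chr7:35448842-35449141, plus strand: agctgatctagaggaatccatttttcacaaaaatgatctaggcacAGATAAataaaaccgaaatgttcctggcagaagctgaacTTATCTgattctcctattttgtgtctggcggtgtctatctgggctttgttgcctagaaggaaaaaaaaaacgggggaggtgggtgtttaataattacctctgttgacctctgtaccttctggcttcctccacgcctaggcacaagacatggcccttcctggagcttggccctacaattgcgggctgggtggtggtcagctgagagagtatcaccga
Slc3a1, chr17:85028097-85028396, plus strand: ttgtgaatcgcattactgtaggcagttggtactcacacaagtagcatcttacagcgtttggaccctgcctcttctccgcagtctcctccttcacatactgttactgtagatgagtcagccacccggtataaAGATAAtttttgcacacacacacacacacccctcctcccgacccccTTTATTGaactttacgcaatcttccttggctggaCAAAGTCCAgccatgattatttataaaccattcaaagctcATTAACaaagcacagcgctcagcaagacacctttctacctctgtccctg
The HNF1 type motif searched was GTTAAT, a core of the sites of these hepatocyte nuclear factors. The HNF4 type motif was CAAAGTCCA, for nuclear receptors of that family. The CDX type motif was TTTATNG, for the caudal homeobox factors of the gut, and the GATA type motif was AGATAA, for the zinc finger factors of that name. The Slc3a1 promoter held all 4, none overlapping another. Its GATA type match began 119 bases, its CDX type match 73 bases and its HNF4 type match 39 bases before the start, and its HNF1 type match began 1 base after the start, on the other strand. Of all 27025 genes with a promoter in the table, 8.24% held in at least 1 promoter the HNF1 type motif, 0.555% the HNF4 type, 12.5% the CDX type and 12.7% the GATA type. Among the 10 transporter genes the HNF1 type motif was found in Slc3a1, Slc7a7 and Slc6a20a, and the GATA type in Slc3a1, Slc7a7 and Slc7a9. The HNF4 type and CDX type motifs were found in Slc3a1 alone of the 10. The table had 2 promoters for Slc7a9 and 5 for Slc7a7, since a gene can have several starts. The one shown for Slc7a9 was chosen for its match and held the GATA type motif on both strands, and the other had no match. That shown for Slc7a7 was chosen for its HNF1 type match, and of its other 4 promoters 2 held the GATA type motif and 2 had no match. None of these letters was found in the promoter of Slc5a1, and the same held for Slc2a5, Slc2a2, Slc15a1, Slc6a19 and Slc1a1. A match is a run of letters in this window and says nothing of a bound factor.

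Library size and quality were similar in most cultures. Reads assigned to genes ran from 15114132 to 28949911 per library. Passage 2 of mouse_283 had the largest share of reads outside genes, 11.7%, against 3.77% to 6.64% in the other libraries. Its trend of log2 level with GC content was the most negative, at -0.43 per 10 points of GC. It is an early library and had the highest Slc5a1, Slc2a2, Slc15a1 and Slc3a1 of all. Passages 3 and 4 of mouse_283 stood apart. GC content and length together took up 50.7% and 47.8% of the between-gene variance of their deviations, against 5.47% to 28.7% in the other 9 libraries. Mitochondrial genes held 1.05% and 2.32% of their reads, against 2.44% (passage 4 of mouse_285) to 6.04% in the other 9. Passages 3 and 4 of mouse_283 are both early, so results are also given without them and after a correction for GC content and length. Without them, passage 2 is the only early library of mouse_283. Markers of epithelium were high, with Epcam between 1118 and 1230 CPM (read counts scaled to library size, normalised by TMM) in late and between 613 and 1165 CPM in early libraries. Markers of fibroblasts summed to at most 1.52 CPM, those of endothelium to at most 0.749 CPM and those of smooth muscle to at most 0.427 CPM, with Dcn and Kdr at 0 in every library. The 6 leukocyte markers summed to 7.55 to 13.8 CPM in late and 9.96 to 22.3 CPM in early libraries, most of it from Itgam (5.43 to 9.52 CPM in late and 3.40 to 13.5 CPM in early libraries) and Cd68 (1.56 to 3.88 CPM in late and 2.45 to 7.50 CPM in early libraries), while Ptprc and Cd3e stayed under 1 CPM. The colon marker Car1 had no read in any library. The 3 ileal markers summed to 0.848 to 26.8 CPM in late and 19.8 to 38.5 CPM in early libraries. Of these, Osr2 had 0.0979 to 26.3 CPM in late and 17.6 to 37.4 CPM in early libraries, Slc10a2 reached 0.931 CPM in late and 2.20 CPM in early libraries, and Fabp6 stayed at or below 0.0624 CPM.

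In the organoids, the sodium-glucose cotransporter gene Slc5a1 stood far above the other 9 transporters once transcript length was taken into account. Its mean level over the 11 libraries was 111 CPM per kilobase, with a range of 46.8 to 181, and it ranked first of the 10 in every library. It made up between 38.4% and 55.0% of the summed level per kilobase of the 10 genes. Below it came the basolateral amino acid carrier Slc7a7 at 31.6 CPM per kilobase (20.8 to 54.1) and the heavy chain gene Slc3a1 at 28.9 (14.6 to 62.6). These ranges overlapped over most of their length, and the mean ranks were 2.3 and 2.8. Slc7a9 followed at 18.8 CPM per kilobase (10.7 to 29.2). The fructose carrier Slc2a5 at 10.6 (3.44 to 18.8), the neutral amino acid carrier Slc6a19 at 10.2 (4.26 to 16.9) and the sugar exit carrier Slc2a2 at 8.55 (3.69 to 16.3) were not separated by their spread. The glutamate carrier Slc1a1 had 4.53 CPM per kilobase (2.41 to 6.84). The peptide carrier Slc15a1, at 1.78 CPM per kilobase (0.575 to 4.55), was ninth in every library. Slc6a20a, a proline carrier, was last in every library at 0.472 (0.120 to 1.31) and rested on 9 to 90 reads per library. Slc6a20a has a close paralog, Slc6a20b. Reads that map to several places (5.92% to 8.78% per library) were counted on a summary line of their own and for no gene. Reads shared by both genes are thus missing from its count, so that its level is uncertain.

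**Figure D1:**
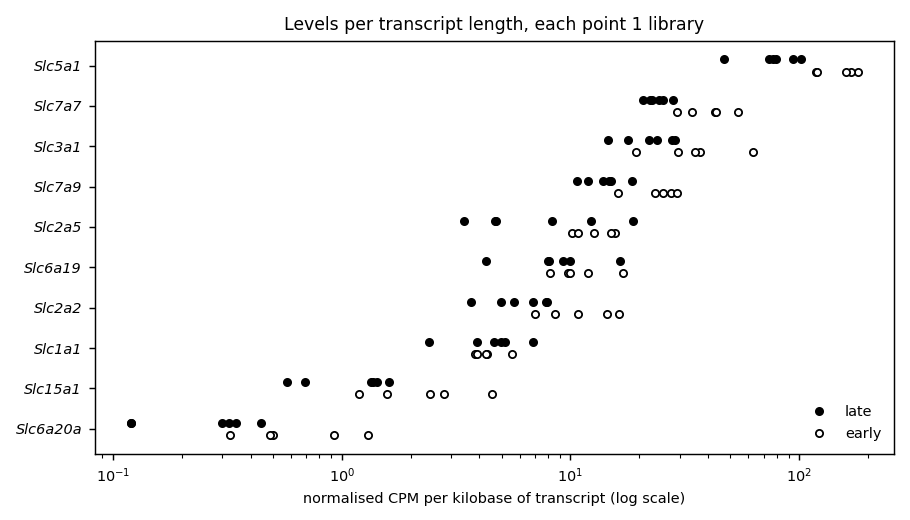
Level of each transporter gene in CPM per kilobase of transcript on a log scale, 1 point per library, with late libraries filled and early libraries open. Slc5a1 stands above all the others in every library, and Slc15a1 and Slc6a20a are below the rest.

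As a whole the 10 genes were lower in late than in early organoids. Their summed level ran from 392 to 773 CPM with a median of 559 in the 6 late libraries, and from 820 to 1212 CPM with a median of 1083 in the 5 early libraries, and these ranges did not overlap. Slc5a1 led this sum in every library. By edgeR's quasi-likelihood test with the animal in the model and Benjamini-Hochberg adjustment over all 14172 genes, 3 of the 10 fell (Slc5a1, Slc7a9 and Slc7a7) and none rose. Across all tested genes 3.05% were called at an adjusted p under 0.05, and 2.34% were called lower. The log2 changes of 9 of the 10 were negative, with a median of -0.84 over the 10 and of -0.02 over all tested genes. At an unadjusted p under 0.05 were 8 of the 10 and 3346 of all genes. In these bulk samples fewer enterocytes and less transporter RNA per enterocyte cannot be told apart. The summed level of 6 enterocyte markers (Vil1, Anpep, Alpi, Fabp1, Fabp2 and Apoa1) ran from 1871 to 2334 CPM in late and from 3130 to 4080 CPM in early libraries, again with no overlap. Anpep (325 to 935 CPM in late and 1252 to 1873 CPM in early libraries), Vil1 and Apoa1 did not overlap between the stages, while Alpi (48.5 to 314 CPM in late and 59.7 to 235 CPM in early libraries), Fabp1 (216 to 561 CPM in late and 143 to 532 CPM in early libraries) and Fabp2 (113 to 184 CPM in late and 49.3 to 204 CPM in early libraries) did. The part of enterocyte number in the lower transporter levels was not tested.

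**Figure D2:**
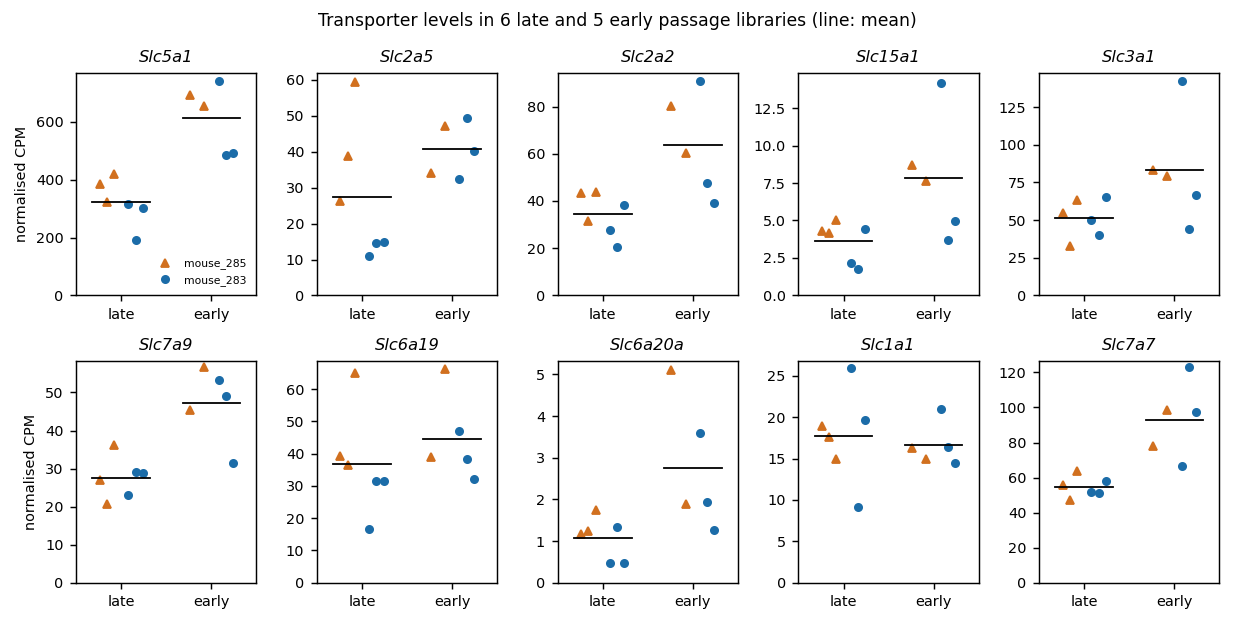
Normalised CPM of each of the 10 transporter genes in the 6 late and 5 early libraries, with mouse_285 as triangles and mouse_283 as circles, and the mean as a line. All late libraries lie below all early libraries for Slc5a1 and Slc7a7, which held for 3.51% of all tested genes. The groups overlap for all the other transporters.

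The count of transporters called moved with the libraries used. The count over all genes, 432 of 14172 in the main fit, moved as well. Without passages 3 and 4 of mouse_283, 6 transporters were called, all lower, beside 651 genes in all. After the correction for GC content and length it was also 6, all lower, beside 950 of 13709 genes. DESeq2 called 6 transporters and 1343 genes. Without a filter on low counts edgeR called 7 transporters and 1819 of 23493 genes. Leaving out passage 2 of mouse_283 gave 6 calls beside 4864 of 14172 genes. Leaving out passage 4 of mouse_283 gave 3 beside 437 genes, and leaving out passage 2 of mouse_285 gave 2 beside 434. Leaving out any of the other 8 libraries left 1 call, Slc5a1, beside 176 to 332 genes.

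Among the sugar carriers, Slc5a1, the apical cotransporter of glucose and galactose with sodium, fell to 323 ± 78.8 CPM in late libraries (SD, n = 6), against 614 ± 117 CPM in early libraries (n = 5). In mouse_285 it had 387, 324 and 420 CPM at passages 11, 12 and 13, against 692 and 656 CPM at passages 2 and 4. In mouse_283 it had 315, 192 and 302 CPM at passages 11, 12 and 13, against 741, 487 and 492 CPM at passages 2, 3 and 4. Every late library thus lay below every early library, which held for 3.51% of all tested genes. The log2 change was -0.98 (SE 0.18, edgeR adjusted p = 0.0144), and 4.57% of tested genes had a lower one. Slc5a1 was called in all 19 alternative analyses, with log2 changes between -1.15 and -0.85 and adjusted p between 3.53e-05 and 0.0458.

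Slc2a2, the basolateral carrier through which sugars leave the cell, had 43.5, 31.7 and 44.0 CPM at passages 11, 12 and 13 in mouse_285, against 80.4 and 60.2 CPM at passages 2 and 4. For mouse_283 the values were 27.6, 20.6 and 38.4 CPM at passages 11, 12 and 13, against 90.6, 47.8 and 39.0 CPM at passages 2, 3 and 4. Within each animal all late libraries were below all early ones, although the lowest early value of mouse_283 lay below 2 late values of mouse_285. The log2 change was -0.94 (SE 0.24), with an adjusted p of 0.059 by edgeR, which missed the threshold. It passed in 6 of the 19 alternatives, among them the analysis without passages 3 and 4 of mouse_283 (-1.16, edgeR adjusted p = 0.00704) and that with the GC and length correction (-1.41, edgeR adjusted p = 0.00286). Without passages 3 and 4, the only early library of mouse_283 was passage 2, at 90.6 CPM the highest of all libraries. Without passage 2 instead, the log2 change was -0.71 (edgeR adjusted p = 0.0213), in a fit that called 4864 of 14172 genes. The transcript of Slc2a2 had 41.7% GC, the lowest of the 10. The ratio of Slc5a1 to Slc2a2 per kilobase was 10.7 to 15.5 in late and 11.1 to 17.1 in early libraries, so that the apical and the basolateral glucose carriers kept overlapping proportions.

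Slc2a5, the apical fructose carrier, had the widest gap of the 10 between the log2 changes of the 2 animals. In mouse_285 it had 26.2, 38.9 and 59.4 CPM at passages 11, 12 and 13, against 34.2 and 47.2 CPM at passages 2 and 4. In mouse_283 it had 10.9, 14.7 and 15.0 CPM at passages 11, 12 and 13, against 32.3, 49.4 and 40.1 CPM at passages 2, 3 and 4. The groups overlapped in mouse_285, and in mouse_283 the highest late value was under the lowest early value. Over both animals Slc2a5 averaged 27.5 ± 18.7 CPM in late and 40.7 ± 7.61 CPM in early libraries, with a log2 change of -0.90 (SE 0.33, edgeR adjusted p = 0.146).

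The peptide carrier Slc15a1, which takes up di- and tripeptides with protons, had 4.28, 4.18 and 5.03 CPM at passages 11, 12 and 13 of mouse_285, against 8.72 and 7.61 CPM at passages 2 and 4. In mouse_283 it had 2.15, 1.79 and 4.45 CPM at the same late passages, against 14.2, 3.72 and 4.94 CPM at passages 2, 3 and 4. The stages overlapped in mouse_283 and not in mouse_285. The log2 change was -1.19 (SE 0.37, edgeR adjusted p = 0.0982). It was -1.50 when passages 3 and 4 of mouse_283 were left out (edgeR adjusted p = 0.0159), and with the GC and length correction -1.32 (edgeR adjusted p = 0.017). Without passage 2 of mouse_283 the log2 change was -0.76 (edgeR adjusted p = 0.0417), in a fit that called 4864 of 14172 genes. The early libraries of mouse_283 left in that fit were passages 3 and 4, which stood apart in GC content. The size of the change thus depended on which early libraries of mouse_283 were used. The ratio of Slc15a1 to Slc5a1 per kilobase was 0.0145 to 0.0170 in late and 0.0153 to 0.0166 in early libraries of mouse_285. In mouse_283 the ratio spread more widely, from 0.00900 to 0.0194 in late and from 0.0100 to 0.0252 in early libraries.

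Among the apical amino acid carriers, the pair of Slc3a1 and Slc7a9 forms the exchanger of cystine and basic amino acids. Slc7a9, the light chain, fell to 27.5 ± 5.35 CPM in late libraries, against 47.2 ± 9.73 CPM in early libraries (SD, n = 6 and 5), with a log2 change of -0.79 (SE 0.20, edgeR adjusted p = 0.0478). It had 26.9, 20.8 and 36.1 CPM at passages 11, 12 and 13 of mouse_285, against 45.4 and 56.6 CPM at passages 2 and 4. Mouse_283 gave 23.1, 29.1 and 28.8 CPM at the same late passages, against 53.3, 49.1 and 31.5 CPM at passages 2, 3 and 4. Late libraries were below early ones within both animals, and passage 13 of mouse_285 lay above passage 4 of mouse_283. The call rested on few libraries: it held without passage 2 or passage 4 of mouse_283, whereas the removal of any other library alone gave an edgeR adjusted p between 0.0566 and 0.178. With size factors in place of TMM the edgeR adjusted p was 0.0503. Without both passages 3 and 4 of mouse_283 the log2 change was -0.91 (edgeR adjusted p = 0.00741), and with the GC and length correction it was -0.80 (edgeR adjusted p = 0.022).

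Slc3a1, the heavy chain, had 54.4, 33.1 and 63.4 CPM at passages 11, 12 and 13 of mouse_285, against 83.3 and 79.5 CPM at passages 2 and 4. The libraries of mouse_283 had 50.1, 40.3 and 65.5 CPM at the same late passages, against 142, 44.1 and 66.8 CPM at passages 2, 3 and 4. The stages did not overlap in mouse_285, and in mouse_283 passage 3 was among the late values. The log2 change was -0.70 (SE 0.28, edgeR adjusted p = 0.167). Slc3a1 was called once passages 3 and 4 of mouse_283 were left out (edgeR adjusted p = 0.0156). Without passage 2 of mouse_283, the highest of the 11, the log2 change was -0.40, with passages 3 and 4 as the only early libraries left of that animal. The ratio of light to heavy chain per kilobase was 0.515 to 0.845 in late and 0.439 to 1.30 in early libraries, and both ends of the early range came from mouse_283.

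The other 3 apical amino acid carriers (Slc6a19, Slc6a20a and Slc1a1) were not called. Slc6a19, the main uptake route of neutral amino acids, had 36.7 ± 15.8 CPM in late and 44.7 ± 13.3 CPM in early libraries (log2 change -0.39, SE 0.24, edgeR adjusted p = 0.319), and it passed in none of the 19 alternatives. Its late values were 39.2, 36.4 and 64.9 CPM in mouse_285, against early values of 39.1 and 66.4 CPM, and they overlapped. In mouse_283 the late values were 16.8, 31.6 and 31.6 CPM, against early values of 47.1, 38.4 and 32.2 CPM, and they did not overlap. Slc6a20a, the carrier of proline and related imino acids, had 1.07 ± 0.507 CPM in late and 2.76 ± 1.57 CPM in early libraries (log2 change -1.44, SE 0.40, edgeR adjusted p = 0.0772). It had the most negative log2 change of the 10, and 2.18% of tested genes had a lower one. It passed in 5 of the 19 alternatives, with an edgeR adjusted p of 0.0326 without passages 3 and 4 of mouse_283 and of 0.0172 with the GC and length correction.

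Slc1a1, the carrier of glutamate and aspartate, was the one transporter with a positive log2 change, 0.10 (SE 0.24, edgeR adjusted p = 0.796). It had 18.9, 17.6 and 14.9 CPM at passages 11, 12 and 13 of mouse_285, against 16.3 and 14.9 CPM at passages 2 and 4. Those of mouse_283 had 26.0, 9.17 and 19.7 CPM at the same late passages, against 21.0, 16.4 and 14.5 CPM at passages 2, 3 and 4. The stages overlapped in both animals, and the sign changed in some alternatives, with -0.06 under the GC and length correction. The ratio of Slc1a1 to Slc5a1 per kilobase was 0.0383 to 0.0892 in late and 0.0245 to 0.0365 in early libraries, with no overlap. Since Slc5a1 was lower in every late library, this ratio carries its fall and is no separate sign of a rise of Slc1a1.

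On the basolateral face, Slc7a7 encodes the light chain of the exchanger that lets basic amino acids out of the cell, with Slc3a2 as its heavy chain. It fell to 54.6 ± 5.87 CPM in late libraries, against 92.8 ± 21.8 CPM in early libraries (SD, n = 6 and 5), with a log2 change of -0.76 (SE 0.18, edgeR adjusted p = 0.0373). The late values were 55.5, 47.3 and 63.8 CPM in mouse_285, against early values of 77.8 and 98.8 CPM. In mouse_283 the late values were 51.7, 51.1 and 58.2 CPM, against early values of 66.7, 123 and 97.6 CPM. Every late library lay below every early one. The early values were highest at passage 3 of mouse_283. Without passages 3 and 4 of mouse_283 the log2 change was -0.54 and the call was lost (edgeR adjusted p = 0.0531), and with the GC and length correction it was -0.48 (edgeR adjusted p = 0.0319). The transcript of Slc7a7 had 52.4% GC. Leaving out single libraries kept the call without passage 2 of either animal, and any other single library left out gave an edgeR adjusted p between 0.0539 and 0.135. The ratio of Slc7a7 to Slc3a2 per kilobase was 0.316 to 0.440 in late and 0.369 to 0.486 in early libraries.

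Counted within animals, 4 of the 10 transporters (Slc5a1, Slc2a2, Slc7a9 and Slc7a7) had every late library below every early library of the same animal in both animals, which held for 5.44% of all tested genes. Counted over both animals together it was 2 of the 10, Slc5a1 and Slc7a7.

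**Figure D3:**
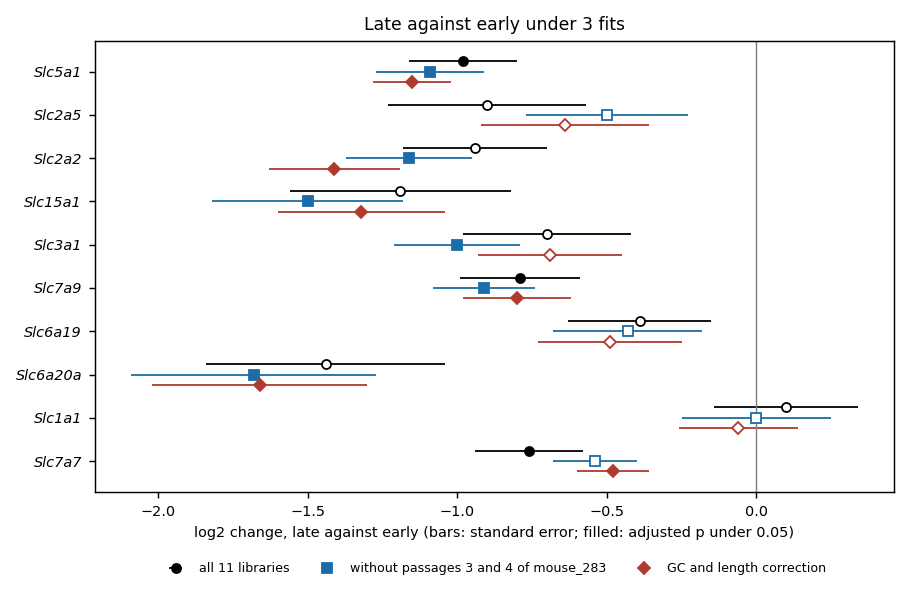
Log2 change of each transporter, late against early, with its standard error, from all 11 libraries, without passages 3 and 4 of mouse_283 and with the GC and length correction. Filled symbols have an edgeR adjusted p under 0.05, and Slc5a1 is filled in all 3, while Slc2a5, Slc6a19 and Slc1a1 are filled in none.

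Tested within each animal, the log2 changes lay close together for most carriers and farthest apart for the fructose carrier. In mouse_285 none of the 10 was called by edgeR, and 0% of all genes were, with 4 of the 10 and 762 of all genes at an unadjusted p under 0.05, and with 74 genes and none of the 10 called by DESeq2. In mouse_283, 1 of the 10 was called, Slc2a5, beside 1.42% of all genes. The median log2 change of the 10 was -0.76 in mouse_285 and -0.94 in mouse_283. For Slc5a1 the log2 changes were -0.84 (SE 0.28) in mouse_285 and -1.09 (SE 0.26) in mouse_283, and for Slc7a9 they were -0.87 (SE 0.30) in mouse_285 and -0.73 (SE 0.28) in mouse_283. Slc7a7 had -0.67 (SE 0.27) in mouse_285 and -0.84 (SE 0.25) in mouse_283.

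Slc2a5 had a log2 change of 0.03 (SE 0.35) in mouse_285 and of -1.59 (SE 0.32, edgeR adjusted p = 0.0348) in mouse_283. The difference between these effects was 1.61 on the log2 scale (SE 0.48), with an unadjusted p of 0.00566 and an edgeR adjusted p of 0.99, so the adjusted test did not separate the animals. No gene was called for a difference of the stage effect between animals (0%), with 302 genes and 1 of the 10 at an unadjusted p under 0.05, and DESeq2 called 16 genes and none of the 10. Without passage 2 of mouse_283 the difference for Slc2a5 passed, at 1.75 (edgeR adjusted p = 0.0134), and 2315 genes did so with it. The call in mouse_283 was kept without passage 2 of mouse_283 or without passage 11 or 13 of mouse_285, and lost without any other single library (edgeR adjusted p between 0.0585 and 0.149). Without both passages 3 and 4 of mouse_283 the log2 change in that animal was -1.26, with passage 2 as its only early library.

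**Figure D4:**
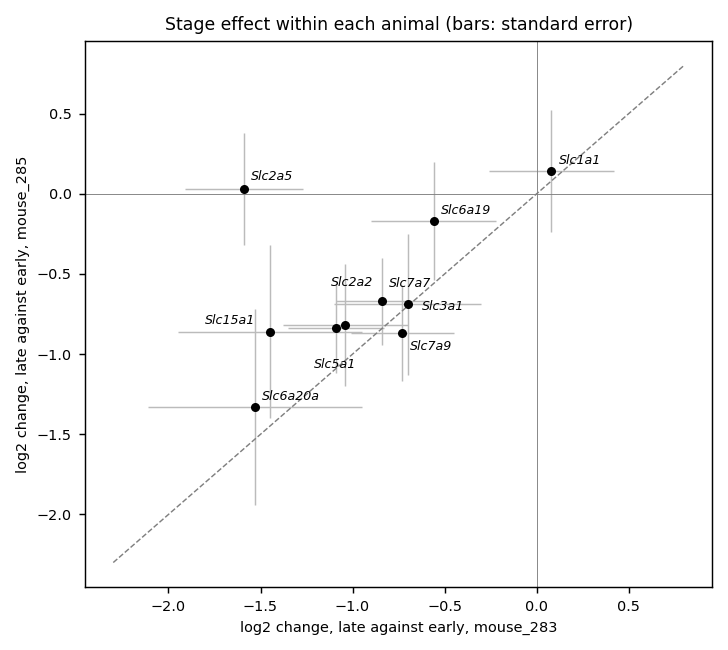
Log2 change of each transporter, late against early, in mouse_285 (vertical axis) and in mouse_283 (horizontal axis), with standard errors and a dashed line of equal effects. Slc2a5 is farthest from the line, at 0.03 in mouse_285 and -1.59 in mouse_283.

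Between the animals, with the stage in the model, none of the 10 transporters was called, and 0.0776% of all genes were. At an unadjusted p under 0.05 were 2 of the 10 and 730 of all genes, and DESeq2 called 126 genes and none of the 10. Those 2 were Slc2a5, with a log2 difference of 0.92 in mouse_285 against mouse_283 (SE 0.33, unadjusted p = 0.0159, edgeR adjusted p = 0.649), and Slc6a19, with 0.64 (SE 0.24, unadjusted p = 0.0211, edgeR adjusted p = 0.717). Of the 10 log2 differences 7 were positive, with a median of 0.37, against 0.00 over all tested genes. Without a filter on low counts Slc2a5 passed (0.90, edgeR adjusted p = 0.0473).

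Along the passages inside each stage no gene was called (0%), with 973 genes and 1 of the 10 at an unadjusted p under 0.05 by edgeR, and DESeq2 called none. The 1 transporter was Slc2a5, at 0.31 per passage on the log2 scale (SE 0.11, unadjusted p = 0.0167, edgeR adjusted p = 0.588). Within mouse_285 it had 26.2, 38.9 and 59.4 CPM from passage 11 to passage 13.

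The levels of several transporters moved together across the 11 libraries. Pearson's r of log2 CPM was 0.95 between Slc2a2 and Slc15a1, 0.94 between Slc5a1 and Slc2a2 and 0.89 between Slc5a1 and Slc15a1. These correlations describe 11 libraries that share depth, base composition and the difference between stages, and 45 pairs were looked at. After each animal-by-stage mean was taken out, the 3 values were 0.88, 0.87 and 0.77. These deviations still hold the contrast within early mouse_283. There, passage 2 was higher in all 3 genes than passages 3 and 4, which stood apart in GC content. The part of this contrast in the 3 values was not tested. Slc1a1 had r between -0.34 and 0.29 with the other 9. With the means taken out, its r with Slc5a1 was 0.79. Slc2a5 had its highest value with Slc6a19, at 0.79, and 0.63 with the means taken out. Slc7a7 had negative values with 6 of the other 9 once the means were taken out.

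Over the 9639 genes with a mean of at least 5 CPM, the genes most like each transporter over the 11 libraries were found by Pearson's r of log2 CPM. For Slc5a1 they were Synpo and Cyp4v3, each at 0.96, and for Slc2a2 they were Heg1 at 0.97 and Maob at 0.96. Slc15a1 was most like Slc2a2, at 0.95, and then Nat8f4 at 0.93. Slc3a1 was most like Dgkq and Helz2, each at 0.96, and Slc7a9 like Tapbpl at 0.96 and Nr1i3 at 0.95. Slc7a7 had the closest match of all, Adck2 at 0.99, followed by Scarb1 at 0.98. Slc2a5 was most like Slc7a8, a basolateral neutral amino acid carrier, and Abcc6, each at 0.93. The matches of Slc6a19 (Vipr1 at 0.84 and Hcn3 at 0.82), Slc6a20a (Gtf2b at 0.90 and Btnl2 at 0.89) and Slc1a1 (Aldh5a1 at 0.90 and Ttll10 at 0.89) were looser.

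**Figure D5:**
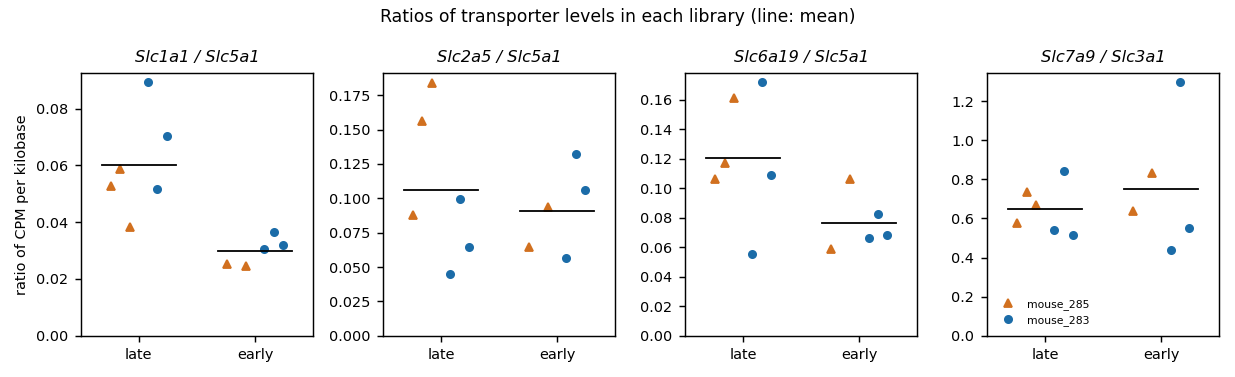
Ratios of levels per kilobase between transporters in each late and early library, with mouse_285 as triangles, mouse_283 as circles and the mean as a line. The ratio of Slc1a1 to Slc5a1 is the one of the 4 in which late (0.0383 to 0.0892) and early (0.0245 to 0.0365) libraries do not overlap.

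Of 11 listed partners and drivers of these carriers 9 were tested, 1 fell and none rose, with a median log2 change of -0.56. The gene that fell is not reported here. Atp1b1, a beta subunit of the sodium pump, had a log2 change of 0.06 (SE 0.24, edgeR adjusted p = 0.889), at 1224 ± 129 CPM in late and 1170 ± 468 CPM in early libraries. The scaffold gene Slc9a3r1, which tethers transporters at the brush border, had -0.56 (SE 0.25, edgeR adjusted p = 0.195). Rsc1a1 stayed under 3 counts in every library.

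Of 16 other sugar transporters 10 were tested, all 10 had a negative log2 change, 2 fell and none rose. Slc5a11, a sodium-coupled inositol carrier, fell to 0.819 ± 0.529 CPM in late libraries, against 3.97 ± 0.752 CPM in early libraries (log2 change -2.50, SE 0.43, edgeR adjusted p = 0.0107), and the call held without each single library. Slc2a7, a relative of Slc2a5, fell to 0.358 ± 0.282 CPM in late libraries, against 1.08 ± 0.333 CPM in early libraries (log2 change -1.96, SE 0.39, edgeR adjusted p = 0.0186). Its late mean lay not far above the 0.104 to 0.198 CPM that 3 counts equal in these libraries, so it rested on few reads. The call of Slc2a7 was lost without passage 11, 12 or 13 of mouse_283 or passage 11 of mouse_285 (highest edgeR adjusted p 0.0645). The general glucose carrier Slc2a1 had 165 ± 24.5 CPM in late and 218 ± 49.8 CPM in early libraries (log2 change -0.37, SE 0.15, edgeR adjusted p = 0.171).

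Of 28 other amino acid and peptide transporters 19 were tested, 2 fell and none rose, and the median log2 change was -0.04, with 9 positive and 10 negative. Slc43a2, a carrier of large neutral amino acids, fell to 26.9 ± 8.62 CPM in late libraries, against 57.7 ± 10.9 CPM in early libraries (log2 change -1.21, SE 0.20, edgeR adjusted p = 0.0083), and the call held without each single library. Slc6a9, a glycine carrier, fell to 13.2 ± 5.14 CPM in late libraries, against 24.1 ± 4.14 CPM in early libraries (log2 change -0.88, SE 0.22, edgeR adjusted p = 0.046). Its call was lost with the GC and length correction and held in 3 of the 11 analyses that left out 1 library, those without passage 2, 4 or 13 of mouse_283. Slc1a5, a glutamine carrier of dividing cells, had a log2 change of -0.45 (SE 0.15, edgeR adjusted p = 0.123), and the taurine carrier Slc6a6 had 0.11 (SE 0.28). Without passages 3 and 4 of mouse_283 the list had 3 genes lower and 1 higher, the cystine and glutamate exchanger Slc7a11.

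Among 25 other enterocyte genes, all tested, 7 fell and none rose, and the median log2 change was -0.58. Among the 7 were Lct, the lactase gene (-3.09), Ace, a peptidase (-1.82), the apolipoprotein genes Apoa1 (-1.48) and Apoa4 (-1.15), the peptidase gene Anpep (-1.27) and the brush border cadherin Cdhr2 (-0.84). Lct had 11.6 ± 12.0 CPM in late and 45.4 ± 5.79 CPM in early libraries, and Anpep had 687 ± 227 CPM in late and 1609 ± 237 CPM in early libraries. Without passages 3 and 4 of mouse_283, 11 of the 25 were lower, and with the GC and length correction 8 were. Of these 6, only Ace was called without each single library (edgeR adjusted p up to 0.0419), and the highest edgeR adjusted p of the other 5 was 0.101, that of Apoa4. Vil1, a brush border actin-bundling protein, had -0.49 (SE 0.15, edgeR adjusted p = 0.0873).

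Of 14 transcription factors and sugar sensing genes 12 were tested, 1 fell and none rose. Mlxipl, a glucose-responsive transcription factor, fell to 210 ± 35.0 CPM in late libraries, against 306 ± 59.1 CPM in early libraries (log2 change -0.59, SE 0.14, edgeR adjusted p = 0.0429). No gene of this list was called with the GC and length correction, and the call of Mlxipl held in 3 of the 11 analyses that left out 1 library, those without passage 2 of either animal or passage 4 of mouse_283. Hnf4a, a regulator of enterocyte genes, had 778 ± 96.3 CPM in late and 851 ± 77.3 CPM in early libraries (log2 change -0.13, SE 0.15, edgeR adjusted p = 0.587). Txnip, which is induced by glucose through Mlxipl in other tissues, had 0.16 (SE 0.15, edgeR adjusted p = 0.504).

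The amino acid response, a set of genes switched on when amino acids run short, had no call among its 10 tested genes by edgeR. All 10 log2 changes were negative, with a median of -0.34. Atf4, its central transcription factor, had -0.17 (SE 0.18, edgeR adjusted p = 0.546), and Asns, the asparagine synthetase gene, had -0.39 (SE 0.15, edgeR adjusted p = 0.157). Once passages 3 and 4 of mouse_283 were left out, Ddit3 was called lower and the median was -0.06.

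Markers of other cell types moved with the stages as well. Enteroendocrine markers summed to 672 to 922 CPM in late and 429 to 495 CPM in early libraries, and tuft markers to 5.48 to 10.6 CPM in late and 17.4 to 22.7 CPM in early libraries, in both cases without overlap. The single markers were mixed. Chgb (519 to 711 CPM in late and 110 to 313 CPM in early libraries) and Neurod1 did not overlap, whereas Chga (125 to 205 CPM in late and 110 to 317 CPM in early libraries) and Neurog3 (21.2 to 35.6 CPM in late and 7.65 to 48.9 CPM in early libraries) did. Of the tuft markers Trpm5 and Avil did not overlap, and Dclk1 and Pou2f3 did. Stem cell markers (494 to 1712 CPM in late and 579 to 1499 CPM in early libraries), proliferation markers (553 to 822 CPM in late and 358 to 691 CPM in early libraries) and goblet markers (2470 to 4852 CPM in late and 3267 to 7580 CPM in early libraries) overlapped. Colon markers summed to 20.5 to 29.0 CPM in late and 33.0 to 45.7 CPM in early libraries, without overlap in the sum, although single markers such as Mettl7b overlapped. Paneth cell markers overlapped, at 938 to 1464 CPM in late and 736 to 2294 CPM in early libraries. Markers of proximal small intestine overlapped, at 494 to 1472 CPM in late and 766 to 1521 CPM in early libraries. The part of these cell types in the transporter levels was not tested.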

How the data were processed

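Read counts per gene were deposited by the authors for all 11 libraries, without strand and for each strand. STAR, after trimming with Trimmomatic, aligned the reads to build mm9 of the mouse genome, per the submitters' processing notes; tool versions and the annotation are not given in the sources used here. The first strand held 50% to 50.2% of stranded reads, so the unstranded counts were used, and reads of overlapping genes on opposite strands cannot be told apart. The 4 summary lines of each table stayed out of library sizes. Of 37310 identifiers, 32620 were matched to a symbol through GENCODE, whose longest protein-coding transcript of a gene gave its length and GC content.

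Counts were tested with edgeR 4.0.16 in R 4.3.3 (filterByExpr, TMM, quasi-likelihood test, two-sided, Benjamini-Hochberg over 14172 genes, threshold 0.05). Both stages hold the same 2 animals, so the animal was a block; deviations from stage means had a median correlation of 0.11 between libraries of the same animal in different stages and -0.14 between different animals. A limit of 3 counts equals 0.104 to 0.198 CPM and reflects counting error alone. Alternatives were other size factors, other filters, DESeq2 1.42.0, no block, each library left out and passages 3 and 4 of mouse_283 left out. A further one was a spline correction for GC content and length, given to edgeR as offsets. The named genes were all 10 members, and from each gene list those called and those of highest mean CPM. The members and lists were chosen with earlier results of these data known, and so they are not independent of them. Some genes that the rule names are not reported here.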

Additional observations from a re-analysis of the deposited data

How the results depend on the processing

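Between late and early, the direction of 9 of the 10 transporters was kept in all 19 alternatives, and Slc5a1 was called in each of them. Slc1a1 changed sign, at -0.06 with the GC and length correction and between -0.06 and 0.27 when single libraries were left out. The number of genes called, 432, became 1819 without a filter on low counts (7 transporters), 1343 with DESeq2 (6), 651 without passages 3 and 4 of mouse_283 (6), 950 with the GC and length correction (6) and 176 to 4864 without single libraries (1 to 6). The highest of these came without passage 2 of mouse_283. With the correction 487 genes were higher and 463 lower, against 100 higher and 332 lower. The cause of these shifts was not tested.

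Without the replicate block, 400 genes and 3 transporters were called late against early, with -0.93 for Slc5a1, and 2 genes between the animals; the block changed no call of a transporter. Between mouse_285 and mouse_283 the 11 calls became 207 without a filter (1 transporter), 126 with DESeq2, 109 without passages 3 and 4 of mouse_283, 29 with the correction and 3 to 73 without single libraries. Small differences changed sign: Slc7a7 was 0.17 without passages 3 and 4 of mouse_283, 0.18 with the correction and -0.10 to 0.07 without single libraries, Slc3a1 was 0.04 with the correction and -0.17 to 0.19 without single libraries, and Slc1a1 was -0.29 to 0.05. For the interaction the calls were 65 without a filter, 16 with DESeq2, 4 without those passages, 1 with the correction and 0 to 2315 without single libraries (0 to 1 transporter).

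In mouse_283 the 201 calls became 1446 without a filter (4 transporters), 736 with DESeq2 (2), 799 without passages 3 and 4 (5), 582 with the correction (4) and 36 to 7703 without single libraries (0 to 3). Slc1a1 was -0.21 without passages 3 and 4, -0.13 with the correction and -0.27 to 0.40 without single libraries. In mouse_285 the calls were 114 without a filter, 74 with DESeq2, 322 without passages 3 and 4 of mouse_283, 34 with the correction and 0 to 60 without single libraries, where Slc2a5 was -0.32 to 0.28 and Slc6a19 -0.50 to 0.26. With 9 reads in its lowest library, depth limits Slc6a20a most.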
